A study of Mus musculus with 321 samples.

Results

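The cytosolic ribosomal protein genes encode the proteins of the large (Rpl) and small (Rps) ribosomal subunits. Members were the protein-coding genes whose symbol begins with Rpl or Rps followed by a digit, plus Rplp0, Rplp1, Rplp2 and Rpsa. Genes of the Rps6k kinase family and names ending in -ps were left out. The rule found 89 of 21883 protein-coding genes. Of these, 46 encode core proteins of the large subunit and 31 core proteins of the small subunit, together 77. Another 10 are copies or paralogs (Rpl3l, Rpl7l1, Rpl10l, Rpl22l1, Rpl32l, Rpl36al, Rpl37rt, Rpl39l, Rps27l and Rps27rt). The remaining 2 carry the name without encoding a ribosomal protein of their own: Rps19bp1 encodes a protein that binds the Rps19 product, and Rps23rg1 is a retroposed relative of Rps23.

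The series compared open chromatin by ATAC-seq, in which a transposase cuts accessible DNA, with and without the transcription factor Tcf-1. Wild-type CD4+CD8+ double-positive (DP) thymocytes, sorted from mice whose strain is labelled C56BL/6 (WT, 2 libraries), were compared with DP thymocytes from mice labelled TCF-1-/- deltaVII (KO, 2 libraries). NIH3T3 cells, a mouse fibroblast line of NIH/Swiss origin, carried either an empty retrovirus (Empty RV, 4 libraries) or a retrovirus encoding Tcf-1 (Tcf-1 RV, 4 libraries). ChIP-seq gave H3K27me3 and H3K9me3 in NIH3T3 cells (2 libraries each) and 1 pooled list of Tcf-1 summits in Tcf-1 RV cells. NIH3T3 is an established line, so its 4 libraries per arm describe 1 line. In both NIH3T3 ATAC-seq arms, the file names of replicates 1 and 2 carry a day 2 tag and the others a day 4 tag. Arm means and tests below pool the 2 tags unless stated. The name of the summit list carries a day 2 tag. No animal age was used here, and nothing in the labels says whether replicates came from separate mice or cultures, so p-values measure the spread between libraries only. Libraries are named below by arm and replicate number.

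The ribosome is built in nearly equal amounts of its proteins, and every growing cell needs them, so ribosomal protein genes serve as a usual example of constitutively active genes. Their mRNAs typically start with a C followed by a run of pyrimidines, the 5′ terminal oligopyrimidine (TOP) motif, through which mTOR signalling and the RNA-binding protein Larp1 control their translation. In thymocytes, ribosome supply matters at the proliferative steps of development, and the paralogs Rpl22 and Rpl22l1 have known roles in T cell development.

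As a check of the labels, both WT libraries held gene-end peaks at 10 of 11 DP thymocyte markers, and no marker of that list had a peak in all 4 Empty RV libraries. KO 1 and KO 2 held peaks at 1 and 5 of the 11. Of 9 fibroblast markers, Empty RV 1 to 4 held peaks at 2, 6, 7 and 8, Tcf-1 RV 1 to 4 at 7, 7, 6 and 8, and WT 1 and 2 at 1 and 3. Both WT libraries held peaks at 1 of 5 B cell, 0 of 5 myeloid, 1 of 4 erythroid, 1 of 3 NK and 0 of 4 thymic epithelial markers. List lengths were 23274 and 31014 peaks for WT, 11194 and 12236 for KO, 22789 to 58055 for Empty RV and 36608 to 62672 for Tcf-1 RV, and no read depth was used here. Empty RV replicate 1 stood apart within its arm, with the shortest list.

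The start windows of the members are shown first, because the sequence at the start was not used to choose the family. RefSeq start sequences (GRCm38.p6), running from 250 bases before to 50 after a listed transcription start, matched 69 of the 89 members and 17491 protein-coding genes. The first listed start was used for each gene. A C at the start inside a run of at least 5 pyrimidines, the TOP-like start, was found in 15 of 69 members (21.7%) against 4.81% of all 17491 genes and 2 of 69 mitochondrial ribosomal protein genes. The call rests on 1 listed base. Rpl7a and Rpl27a, for example, had runs of 21 and 20 pyrimidines over a listed start that was not a C, and were not counted. The following 6 have the longest runs among the 15, and each line covers the 40 bases before to the 20 after the start. The capitals mark the pyrimidine run.

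Rpl35: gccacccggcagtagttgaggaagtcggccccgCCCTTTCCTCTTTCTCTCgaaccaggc

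Rpl15: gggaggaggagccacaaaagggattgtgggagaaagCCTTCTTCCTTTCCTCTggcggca

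Rpl14: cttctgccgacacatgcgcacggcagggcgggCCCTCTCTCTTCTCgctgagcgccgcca

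Rps10: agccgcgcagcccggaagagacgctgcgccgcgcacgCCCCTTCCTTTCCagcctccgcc

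Rpl28: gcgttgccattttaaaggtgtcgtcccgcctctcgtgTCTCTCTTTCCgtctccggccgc

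Rps18: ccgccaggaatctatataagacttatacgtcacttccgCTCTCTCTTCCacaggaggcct

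They lie at chr2:39005112-39005171 (minus strand), chr14:18270967-18271026 (minus), chr9:120571477-120571536 (plus), chr17:27635225-27635284 (minus), chr7:4792925-4792984 (plus) and chr17:33955646-33955705 (minus). The pyrimidine run was 18 bases long in Rpl35, 17 in Rpl15 and 13 in Rps10.

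The ETS motif CCGGAAG, searched on both strands, was present in 25 of 69 members (36.2%), in 25 of 69 mitochondrial ribosomal protein genes and in 11.9% of all genes with a listed start. Among the 5214 genes with a start peak in all 12 ATAC libraries the share was 23.6%. The 5 windows below have 2 matches within their full 300 bases. They are shown from 120 bases before to 30 after the start, with the matches in that stretch in capitals.

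Rpl15: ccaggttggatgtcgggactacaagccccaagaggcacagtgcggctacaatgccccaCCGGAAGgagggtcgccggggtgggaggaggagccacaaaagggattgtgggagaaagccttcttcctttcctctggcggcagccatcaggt

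Rpl37: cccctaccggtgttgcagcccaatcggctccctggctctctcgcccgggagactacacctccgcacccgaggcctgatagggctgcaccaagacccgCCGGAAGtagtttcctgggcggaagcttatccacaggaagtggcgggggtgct

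Rpl39l: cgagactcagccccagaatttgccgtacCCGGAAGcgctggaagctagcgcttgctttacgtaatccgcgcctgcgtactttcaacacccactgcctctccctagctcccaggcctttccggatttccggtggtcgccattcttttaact

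Rps18: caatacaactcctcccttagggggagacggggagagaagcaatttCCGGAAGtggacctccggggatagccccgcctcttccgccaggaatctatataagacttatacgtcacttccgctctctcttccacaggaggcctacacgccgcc

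Rps21: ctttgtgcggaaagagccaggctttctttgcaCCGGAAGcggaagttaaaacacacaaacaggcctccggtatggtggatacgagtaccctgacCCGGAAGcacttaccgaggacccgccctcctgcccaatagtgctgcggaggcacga

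These stretches are chr14:18270957-18271106 (minus strand), chr15:5116493-5116642 (plus), chr16:10170108-10170257 (plus), chr17:33955636-33955785 (minus) and chr2:180257259-180257408 (plus). Members with and without the ETS motif had a start peak in all 12 libraries in 15 of 25 and 25 of 44 cases. For members with and without a TOP-like start the counts were 9 of 15 and 31 of 54. Rpl15 and Rps21, with 2 ETS matches and a TOP-like start each, had a start peak in 0 of 12 libraries, whereas Rpl37, Rps18 and Rpl35 had one in 12 of 12.

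The TCF/LEF core CTTTGA, the short form of the sequence bound by Tcf-1 and its relatives, was present on either strand in 4 of 69 members (5.80%) against 14.9% of all genes with a listed start and 10.5% of those with a start peak in all 12 libraries. All 4 are shown, and none of them had a Tcf-1 summit within 1 kb of a gene end. Of the 89 members 27% had one, so 4 genes are too few to tell the shares apart. Each line is a stretch of 60 bases upstream of the start, and the capitals mark the motif, here on the minus strand of the gene as TCAAAG.

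Rps3a1: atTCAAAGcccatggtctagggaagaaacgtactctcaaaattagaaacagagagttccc

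Rpl6: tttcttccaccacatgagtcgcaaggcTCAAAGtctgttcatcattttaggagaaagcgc

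Rpl10l: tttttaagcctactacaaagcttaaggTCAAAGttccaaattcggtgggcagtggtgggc

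Rpl39: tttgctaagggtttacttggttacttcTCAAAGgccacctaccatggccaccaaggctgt

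Their positions are chr3:86142859-86142918 (minus strand), chr5:121204286-121204345 (plus), chr12:66284561-66284620 (minus) and chrX:37085388-37085447 (minus). Of the other motifs, the GC box GGGCGG was found in 40 of 69 members (58%; 46.3% of all genes), the YY1 motif AAGATGGC in 5 (7.25%; 3.22%), the NRF1 motif GCGCATGCG in 2 (2.90%; 2.41%) and TATAAA, on the sense strand, in 7 (10.1%; 9.0%). In the 5214 genes with a start peak in all 12 libraries these shares were, in the same order, 71.8%, 5.85%, 4.35% and 3.30%. Members were thus below those genes for the GC box and NRF1 motif and above them for the YY1 motif and TATAAA. The NRF1 and YY1 motifs were found in too few members, 2 and 5, to tell the shares apart. Median GC content was 57% in members and 56.3% in all windows. Rpl31, with 5 matches over all motifs, had the most. Rpl22, Rpl9, Rpl37rt, Rps9, Rpl28, Rps23rg1, Rpl4, Rps27rt, Rps12, Rps15, Rps24, Rpl24 and Rpl3l had none.

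The retrocopy Rps27rt, a member without a listed peak, is set here beside its parent gene. Whether reads at the retrocopy were removed before or during peak calling was not tested. Rps27 (chr3:90212667-90213648) had a gene-end peak in all 12 libraries and Rps27rt (chr9:114982366-114982739), at 374 bp the shortest member, in none. Their start windows share an exact run of 38 bases that begins 2 bases into the Rps27 transcript and at the first base of the Rps27rt transcript. The longest run shared by the 250 bases before the 2 starts was 10 bases. The lines run from 60 bases before to 30 after each start, with the shared run in capitals as far as shown.

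Rps27: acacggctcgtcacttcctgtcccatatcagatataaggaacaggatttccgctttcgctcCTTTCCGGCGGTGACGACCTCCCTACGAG

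Rps27rt: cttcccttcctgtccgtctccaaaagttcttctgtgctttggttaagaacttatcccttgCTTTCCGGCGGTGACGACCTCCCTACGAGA

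They lie at chr3:90213619-90213708 and chr9:114982710-114982799, both on the minus strand. The other 5 pairs with listed starts for both genes (Rpl10 with Rpl10l, Rpl22 with Rpl22l1, Rpl36a with Rpl36al, Rpl39 with Rpl39l, and Rps27 with Rps27l) shared no run longer than 8 bases.

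Ribosomal protein genes were open in both cell types. A gene-end peak, meaning a peak within 1 kb of either annotated gene end, was listed at 71 members in WT 1 and 74 in WT 2, at 65 in KO 1 and 66 in KO 2, at 57, 71, 74 and 74 in Empty RV 1 to 4 and at 73, 72, 72 and 75 in Tcf-1 RV 1 to 4. In every library the share of members (64% to 84.3%) was above the share of all protein-coding genes (34.9% to 49.8%). All 12 libraries held a gene-end peak at 52 members (58.4%), against 27.5% of protein-coding genes and 41 of 78 mitochondrial ribosomal protein genes (52.6%). Leaving out Empty RV replicate 1, the other 11 libraries all held one at 59 members (66.3%; 30.7% of all genes). No library held one at 12 members (13.5%), against 42.1% of genes.

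**Figure D1:**
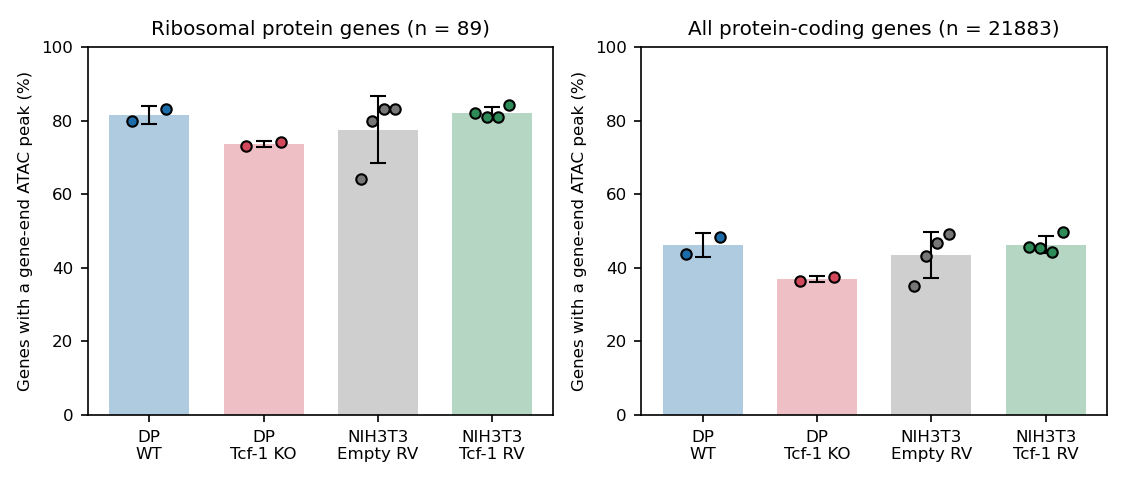
Share of genes with an ATAC peak within 1 kb of a gene end (vertical axis, %) in each library, for the 89 ribosomal protein genes and for all 21883 protein-coding genes. Points are libraries, bars are arm means and error bars are SD (2 DP and 4 NIH3T3 libraries per arm); the members lie between 64% and 84.3% and all genes between 34.9% and 49.8%, and Empty RV replicate 1 is the lowest point in both panels.

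The peaks sat on the start of transcription. At the listed start itself, 81.9% of the 69 members with a start were under a peak in WT (mean over libraries), 70.3% in KO, 78.3% in Empty RV and 81.9% in Tcf-1 RV. The values for the 17422 other protein-coding genes were 40.8%, 32.2%, 37.1% and 40%. The share of members under a peak was highest within 20 bp of the start in WT, Empty RV and Tcf-1 RV, and in KO it was equally high (71%) at 20 bp before and 40 bp after it. Ribosomal protein genes are short, with a median gene length of 3183 bp (374 to 16779 bp) against 17170 bp for all protein-coding genes. For 44 of the 89, another protein-coding gene ends or starts within 2 kb of one of their ends, so a gene-end peak there can belong to either gene.

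**Figure D2:**
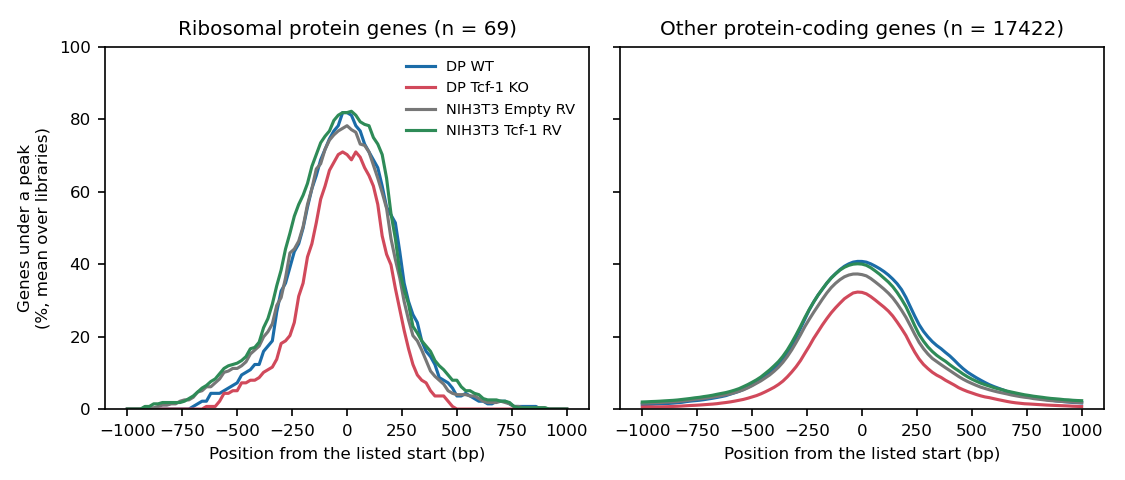
Share of genes under an ATAC peak (vertical axis, %, mean over the libraries of an arm) by position from the listed start (horizontal axis, bp; negative is upstream), for 69 ribosomal protein genes and 17422 other protein-coding genes. At the start the 4 arms lie between 70.3% and 81.9% in ribosomal protein genes and between 32.2% and 40.8% in the others, with KO lowest in both panels.

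By role, the 4 genes of the P stalk and the laminin receptor homologue (Rplp0, Rplp1, Rplp2 and Rpsa, the stalk being the site where translation factors dock) were called in all 12 libraries. Of the 4 members linked to p53 control through Mdm2 (Rpl5, Rpl11, Rpl23 and Rpl26), 2 were called in all 12. Of 16 genes mutated in Diamond-Blackfan anaemia, a failure of red cell production, 10 were, and 2 (Rps29 and Rpl15) had no gene-end peak in any library. The core sets were alike, with 28 of 46 large subunit and 20 of 31 small subunit genes called in all 12. For comparison, 62.3% of core members, 58.4% of all members and 27.5% of all protein-coding genes were. No library held a gene-end peak at 13.5% of members. The groups of members by role are too small to tell from these shares. Outside the family, 14 of 18 translation factor and other TOP mRNA genes, 24 of 34 ribosome biogenesis and RNA polymerase I genes, and 4 of 8 genes of the mTOR to TOP mRNA pathway were called in all 12.

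Peak width, the only quantity per peak in these lists, ranged widely among the 52 members called everywhere. The widest on average over the 12 libraries was at Rps19, with 0.8445 ± 0.114 kb (SD, n = 12; lowest 0.710, median 0.820, highest 1.112 kb). Rps3a1 (0.820 ± 0.203 kb), Rpl30 (0.782 ± 0.161 kb), Rps6 (0.741 ± 0.212 kb) and Rpl7 (0.737 ± 0.286 kb) followed, and these 4 lay within their spread of each other. The narrowest was at Rpl13, with 0.316 ± 0.0388 kb (lowest 0.261, median 0.315, highest 0.396 kb), after Rps26 (0.342 ± 0.150 kb), Rpl35 (0.352 ± 0.0974 kb), Rps16 (0.368 ± 0.0882 kb) and Rpl26 (0.371 ± 0.0840 kb). The lowest Rps19 width was above the highest Rpl13 width. These averages pool 4 arms, and the order differed within them: by arm mean the widest peak was at Rps27a in WT (1.047 kb), Rpl36al in KO (0.7915 kb), Rps19 in Empty RV (0.880 kb) and Rpl10 in Tcf-1 RV (0.9395 kb). The narrowest was at Rps26 in WT, Rpl10a in KO and Rpl13 in both NIH3T3 arms. Width follows the length of the list as well as the site.

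Some core genes had no peak anywhere: Rps21, Rpl13a, Rps29, Rpl15 and Rpl3 had none in the gene or within 1 kb of it in any of the 12 libraries. They are at chr2:180257379-180258444, chr7:45125563-45128745, chr12:69157722-69159186, chr14:18267823-18270986 and chr15:80077781-80083406. The start window of Rpl13a (chr7:45128716-45128865, minus strand), with no ETS match, is given in lower case throughout for comparison with Rpl15 and Rps21 above.

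Rpl13a: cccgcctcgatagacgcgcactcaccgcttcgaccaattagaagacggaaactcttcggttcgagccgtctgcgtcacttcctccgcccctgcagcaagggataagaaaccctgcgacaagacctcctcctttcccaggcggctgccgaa

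Whether reads at these genes were removed before or during peak calling was not tested. Rps2 and Rpl17 had no gene-end peak but a peak inside the gene in 12 of 12 libraries, 1533 to 1726 bp and 1206 to 1492 bp from the nearest end. In Rps2 that peak covered the listed start (chr17, 24720063) and was 0.548 and 0.523 kb wide in WT, 0.261 and 0.258 kb in KO, 0.429, 0.601, 0.615 and 0.618 kb in Empty RV and 0.563, 0.549, 0.566 and 0.622 kb in Tcf-1 RV. The KO widths were below all others. Narrower peaks in KO were common: of the 7435 genes with a gene-end peak in every DP library, 7.32% were wider in KO before library medians were set equal.

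**Figure D3:**
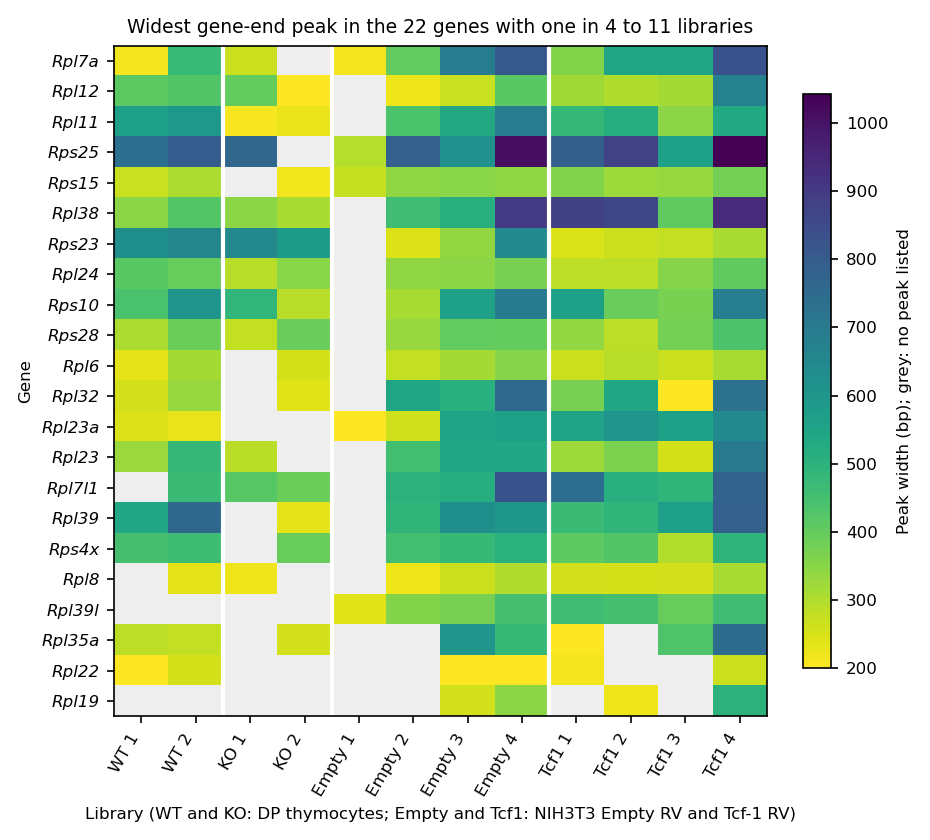
Width of the widest gene-end ATAC peak (colour, bp) in the 22 ribosomal protein genes that have one in 4 to 11 of the 12 libraries (columns; white lines divide the arms; grey, no peak listed). Empty RV replicate 1 is the most common gap, and Rpl39l is filled only in the NIH3T3 columns.

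Among the copies, Rpl22l1, Rpl36al and Rpl3l were called in all 12 libraries. The pairs differed: Rpl36a and Rpl36al were both called in 12 of 12, Rpl22 in 6 and Rpl22l1 in 12, Rpl7 in 12 and Rpl7l1 in 10 (absent in WT 1 and Empty RV 1), Rpl10 in 12 and Rpl10l in 0, Rpl39 in 10 and Rpl39l in 8, and Rps27 in 12, Rps27l in 1 and Rps27rt in 0. Rps27l, a p53 target, had its peak over the listed start in 12 of 12 libraries, but in 11 of them it lay 1006 to 1374 bp from the annotated gene end and so outside the window. Rpl3 had no peak, and the 12 of 12 of Rpl3l, a muscle paralog, came from a peak 0.178 to 0.284 kb beyond the end farther from its start, near an end of Msrb1. Rpl3l had a start peak in 0 of 12. Rpl37rt, Rpl32l and Rpl10l had none. Rps19bp1 was called in 12 of 12, with widths of 0.220 to 0.529 kb, and Rps23rg1 in Tcf-1 RV 4 only (0.205 kb).

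The 319 ribosomal protein pseudogenes, processed copies scattered over the genome by reverse transcription, gave a contrast in sequence-related loci. Any library held a gene-end peak at 29 of them (9.09%), and none was called in all 12. A single library held peaks at 0 to 21 of them. Whether reads at pseudogenes were removed before or during peak calling was not tested.

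Few members separated the cell types. Rpl39l, a paralog of the X-linked Rpl39 known for expression in the testis, had no gene-end peak in the 4 DP libraries. Its peak covered the listed start and was 240, 358, 372 and 447 bp wide in Empty RV 1 to 4 and 459, 450, 395 and 460 bp in Tcf-1 RV 1 to 4. Of 76 members with a gene-end peak in any WT or Empty RV library, 1 was called in both WT and no Empty RV library (DP WT only) and 1 in all 4 Empty RV and neither WT library (NIH3T3 only), against 8.53% and 4.41% of the 12314 genes with one. With 2 and 4 libraries no single gene can pass a two-sided Fisher exact test at 0.05.

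Loss of Tcf-1 in DP thymocytes left most members with their peak. Of the 71 called in both WT libraries, 59 (83.1%) were called in both KO libraries, 10 (14.1%) in 1 of the 2 and 2 (2.82%) in neither. Over all 9544 genes called in both WT libraries, 77.9% were kept and 12.4% lost. Mitochondrial ribosomal protein genes lost 4 of 61. No member was gained (0 of 60 called in both KO libraries; 0.0931% of genes). Members per library fell from 72.5 ± 2.12 (SD, n = 2) to 65.5 ± 0.707 (n = 2), a difference of -7 with no overlap between the arms (exact permutation test, two-sided, p = 0.333, the smallest this design allows). The KO mean was 90.3% of the WT mean for members, 80.1% for all genes and 82.2% for mitochondrial ribosomal protein genes.

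These DP counts depend on which peaks of the lists are used. The KO lists hold fewer peaks than the WT lists, and the effect of depth cannot be told apart from genotype in them. When only the 11171 widest peaks of each library were used, members with a gene-end peak numbered 48 and 47 in WT and 65 and 65 in KO, a difference of 17.5 in the other direction. At that setting 0 members were lost and 13 of 59 (22%) were gained, against 7.10% of all genes, and all genes went from a mean of 7518 to 7960 per library. The direction of the DP difference thus changed between the full lists and these equal lists. Keeping the widest peaks also selects by width. Among genes called in both WT libraries, median WT width was 502 bp for members and 571 bp for all genes. No other way of making the lists equal was run, and the cause of the change was not tested.

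The 2 members called lost were Rpl22 and Rpl23a. Rpl23a (chr11:78180935-78183584) encodes a protein at the exit of the peptide tunnel. Its peak at the upper-coordinate end was 0.245 and 0.227 kb wide in WT, absent in both KO libraries, 0.200, 0.262, 0.552 and 0.563 kb in Empty RV and 0.556, 0.603, 0.561 and 0.640 kb in Tcf-1 RV. The WT peaks were near the narrowest width in any list, 200 bp, and a neighbour, Tlcd1, shares the window. Rpl22 (chr4:152324436-152334082) was called lost through a peak of 0.200 and 0.255 kb in WT within 1 kb of its far end. The peak over its listed start, 1032 to 1253 bp from the nearer gene end, was present in 12 of 12 libraries and 0.412 and 0.653 kb wide in WT and 0.417 and 0.419 kb in KO. The start of Rpl22 was therefore open in both genotypes. Median WT width was 0.232 kb for the 2 lost members, 0.365 kb for the 10 called in 1 KO library and 0.534 kb for the 59 kept. The same order held over all genes, with 0.348, 0.4165 and 0.623 kb.

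The 10 members called in 1 KO library were divided between the replicates. Rpl6, Rpl32, Rps15, Rpl35a, Rpl39 and Rps4x lacked a peak in KO 1, and Rpl7a, Rps25 and Rpl23 were among those lacking one in KO 2. Leaving out 1 KO library therefore raised the lost members to 6 without KO 1 and to 8 without KO 2. That step adds lost genes in general too. Of the 9544 genes called in both WT libraries, 922 (9.66%) were called in 1 KO library. At listed starts, members fell from a mean of 57 to 54 (exact permutation p = 0.667) and none was lost.

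Widths at the kept members were compared on the log2 scale with limma, after each library's median had been set to the same value. None of the 59 members and none of the 7435 genes tested (0%) differed at an adjusted p under 0.05 (limma, Benjamini-Hochberg). At an unadjusted p under 0.05 there were 12 members and 1112 genes. The median KO minus WT difference was 0.13 over the members and 0.07 over all genes. Without the centring the medians were -0.34 and -0.41, so the peaks of KO were narrower at members and at genes alike. Over the 52 members called everywhere the median width was 500 and 603 bp in WT and 365.5 and 450.5 bp in KO, with no overlap. Over the 6011 genes called everywhere it was 588 and 697 bp in WT and 456 and 488 bp in KO, also with no overlap.

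At the extremes, the peak of Rps27a, which encodes a fusion of ubiquitin and a small subunit protein, was 0.959 and 1.135 kb wide in WT and 0.419 and 0.273 kb in KO (log2 difference -1.15 ± 0.26, SE; adjusted p = 0.197, limma). Its 2 arms did not overlap, but on the summed width of all its gene-end peaks the difference was -0.36 (adjusted p = 0.421, limma). Rpl11, which binds Mdm2, went from 0.568 and 0.595 kb to 0.207 and 0.229 kb (-0.94 ± 0.19; adjusted p = 0.176, limma). Rpl10, which joins the large subunit late in its assembly, went from 0.588 and 0.699 kb to 0.276 and 0.237 kb (-0.85 ± 0.21; adjusted p = 0.205, limma), and on summed widths the sign turned, to 0.098 (adjusted p = 0.82, limma). Rpl31, on the other side, had 0.321 and 0.413 kb in WT and 0.418 and 0.580 kb in KO (0.91 ± 0.22; adjusted p = 0.204, limma). The arms of Rpl31 did not overlap, by 0.413 against 0.418 kb. These genes were picked for the size of their difference, which favours arms without overlap, so the lack of overlap adds no support. No share of all genes was set beside it. Without the centring the difference was 0.44 (adjusted p = 0.304) for Rpl31 and -1.33 (adjusted p = 0.0591) for Rpl10 (limma).

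Whether these 4 differences passed turned on which KO libraries were fitted. Without KO replicate 1, Rps27a, Rpl11, Rpl10, Rpl31 and Rps18 passed the adjusted threshold, as did 2.23% of all genes tested in the wider and 5.39% in the narrower direction. Without KO replicate 2, Rps27a, Rpl11 and Rpl36al passed, with 2.92% of genes wider and 6.09% narrower. In both fits the lone KO library is assumed to vary like WT.

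**Figure D4:**
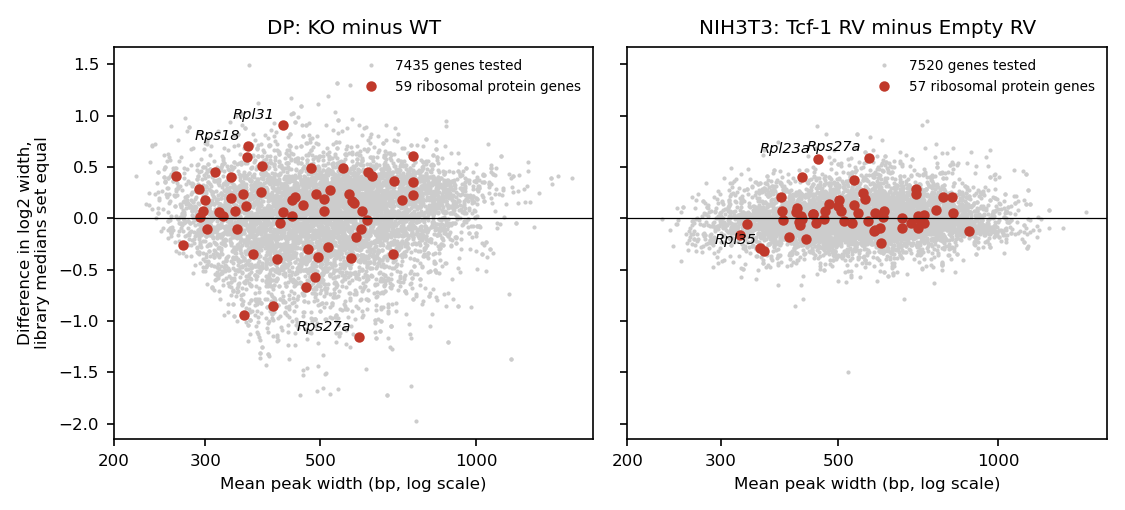
Difference in log2 width of the widest gene-end peak (vertical axis, library medians set equal) against mean width (horizontal axis, bp, log scale) in DP thymocytes (KO minus WT) and NIH3T3 (Tcf-1 RV minus Empty RV). Grey points are all genes tested and red points the ribosomal protein genes, which span -1.15 to 0.91 in DP and -0.31 to 0.59 in NIH3T3; no point passes an adjusted p of 0.05.

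With ectopic Tcf-1 in NIH3T3 cells, no member met the rule for a gained or lost peak. Of 75 members with a gene-end peak in any of the 8 libraries, 0 were gained (4 of 4 Tcf-1 RV and 0 of 4 Empty RV) and 0 lost, against 0.107% and 0% of 11260 genes. The mean number of members per library was 69 ± 8.12 (SD, n = 4) in Empty RV and 73 ± 1.41 (n = 4) in Tcf-1 RV. The arms overlapped (exact permutation test, two-sided, p = 0.6), and without Empty RV replicate 1 the difference of 4 went to 0. Within the libraries whose file names carry a day 2 tag the difference was 8.5, and within those with a day 4 tag it was -0.5. No member and no gene (0%) of the 57 members and 7520 genes tested differed in width (limma, adjusted p under 0.05; 2 members, or 3.51%, and 3.30% of genes at an unadjusted p under 0.05). The 2 were Rps27a, with 0.217, 0.313, 0.640 and 0.888 kb in Empty RV and 0.681, 0.782, 0.551 and 1.013 kb in Tcf-1 RV (0.59 ± 0.23, SE; adjusted p = 0.997, limma), and Rpl23a (0.58 ± 0.19; adjusted p = 0.997, limma). In both genes the arms overlapped. The differences were 1.13 and 0.98 within the day 2 tag, 0.053 and 0.17 within the day 4 tag, and 0.31 and 0.32 on summed widths.

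Tcf-1 summits in Tcf-1 RV cells were found within 1 kb of a gene end at 24 members (27%), all of them core genes: 18 of 46 large subunit and 6 of 31 small subunit genes. Of all protein-coding genes 13.9% had one, and of mitochondrial ribosomal protein genes 21.8%. Among genes with a gene-end peak in all 4 Tcf-1 RV libraries, which the members mostly are, the shares were 22 of 71 members (31%) and 26.8% of all genes. The best score per gene had a median of 16.6 in members and 15.1 in all genes with a summit. The score is the authors' own, on a scale that no source states, and the list is pooled, so these are descriptions without replicates.

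The highest score was at Rpl18, whose summit (chromosome 7, position 45715397) scored 116.7, lay 70 bp outside the gene on its lower-coordinate side and was higher than the best score of 99.3% of genes with a summit. The neighbour Fam83e shares that window. Next came Rpl27 (37.9, 71 bp inside from its listed start), Rps6 (29.7, 775 bp from the end farther from its start) and Rpl37 (29.4, 0.131 kb before its listed start). The summits of Rpl18, Rpl27 and Rpl37 lay in an ATAC peak in 4 of 4 Tcf-1 RV, 4 of 4 Empty RV and 2 of 2 WT libraries. The site was thus called open without Tcf-1 as well. The Rps6 summit lay in a peak of 2 of 4 Tcf-1 RV and 0 of 4 Empty RV libraries.

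Over all 31 summits at the 24 genes, 19 lay in a peak of all 4 Tcf-1 RV libraries, and 16 of those also in a peak of all 4 Empty RV libraries. A further 8 lay in no Tcf-1 RV peak. Distance to the nearest gene end was at most 250 bp for 20 of the 31. Listed start windows, which can lie inside a gene, held 9 summits: 8 of the 31 and a further one of Rpl18. The CTTTGA core was found in 0 of those 9 windows, against 4 of all 69 listed start windows of members (5.80%). At that share, 9 windows are too few to tell the 2 apart. The 2 highest-scoring of the 9 are shown with the 11 bases centred on the summit in capitals, Rpl37 at chr15:5116432-5116532 and a second, lower summit of Rpl18 (score 25.3) at chr7:45718007-45718100, both on the plus strand.

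Rpl37: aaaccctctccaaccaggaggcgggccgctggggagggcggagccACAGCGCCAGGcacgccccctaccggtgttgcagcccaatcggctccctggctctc

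Rpl18: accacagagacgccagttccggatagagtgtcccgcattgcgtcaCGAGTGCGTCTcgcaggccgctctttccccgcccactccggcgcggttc

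**Figure D5:**
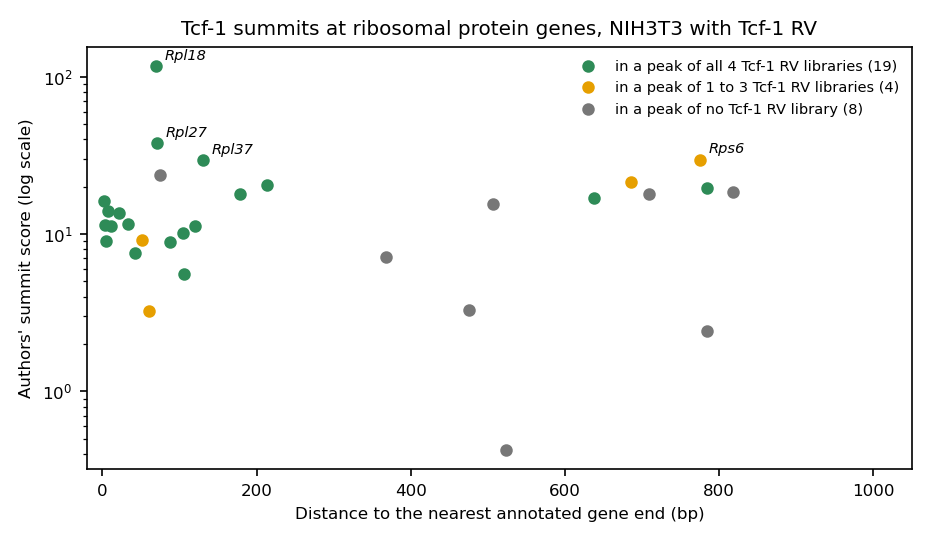
Score of each of the 31 Tcf-1 summits at ribosomal protein genes (vertical axis, the authors' score, log scale) against its distance to the nearest annotated gene end (horizontal axis, bp). Colour gives the number of Tcf-1 RV ATAC libraries with a peak over the summit; Rpl18 is highest at 116.7, and 20 summits lie within 250 bp of a gene end.

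Repressive marks were rare at the members. H3K27me3, deposited by Polycomb complexes, covered the same gene end in both NIH3T3 replicates at 2 members (2.25%) against 16.5% of protein-coding genes. H3K9me3, a mark of heterochromatin, did so at 2 members (2.25%) against 9.39%. No core gene of the 77 had an end under either mark, and the 4 genes were copies or carry the name only. Within 1 kb of a gene end, the window used for ATAC peaks, H3K27me3 was also found at the core genes Rpl5 and Rpl38. The share of pseudogenes was 10.3% for H3K27me3 and 12.2% for H3K9me3.

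The start of Rps23rg1 lay at the edge of H3K27me3 islands of 3200 and 3600 bp. Their ChIP over control was 2.2-fold and 2.18-fold by the authors' deposited values. These islands ended at positions 3568000 and 3568200, whereas the gene runs from 3567998 to 3584776, so most of it lay outside them. Rpl3l lay in islands of 9200 and 8000 bp (1.86-fold and 1.87-fold) that covered its start and not the open site beyond its far end. Rpl10l, a retroposed copy active in the male germ line, lay in H3K9me3 islands of 26400 and 93200 bp (2.24-fold and 2.18-fold). Rpl39l lay in islands of 40400 and 21600 bp with the highest ratios of the 4, 3.37-fold and 4.81-fold. The replicate 1 island covered its open start, whereas the replicate 2 island began at position 10171601, inside the gene and beyond the ATAC peaks, whose last base was 10170443. The open start of Rpl39l thus lay inside the H3K9me3 island of replicate 1 and outside that of replicate 2.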

How the data were processed

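The members and gene lists were chosen with earlier results of these data known. The submitters' processing notes name Bowtie2 2.2.9, MACS2, Picard, STAR 2.5, Trim Galore and FastQC, without saying which made which file. No source used here states the read depth of the ATAC-seq libraries. The deposited ATAC-seq files list peak starts and ends (GRCm38) per library. The authors' island files give ChIP and control read counts, the fold over control, a p-value and an adjusted p-value. For Tcf-1 the authors deposited 40562 pooled summits, each with a score. Peaks on unplaced sequences (293) were left out.

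A gene was called in a library if a peak came within 1000 bp of either end in the RefSeq gene table (GRCm38.p6), which gives no strand. Widths were compared with limma 3.58.1 (R 4.3.3) on log2 bp centred on library medians, over genes called in all libraries of a comparison. On simulated DP widths, limma called 99 of 100 genes changed by 2 and 44 of 100 changed by 1 on the log2 scale. In NIH3T3 it called 96 and 49 of 100. Library counts were compared by exact permutation. Named genes were those called in a comparison, the 15 with peaks in the fewest libraries, the highest summit scores, the 5 widest and narrowest peaks, marked genes, paralog pairs and the genes with the most or fewest motif matches. Rps27a, Rpl11, Rpl10 and Rpl31 were named after their widths were seen. Alternatives changed the window, peak width, list length, members and replicates. RNA-seq, single-cell and other libraries of the 321 samples were not analysed here, and results for a few genes are not reported here.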

Additional observations from a re-analysis of the deposited data

Results flagged for a closer look

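Within an arm of 4 libraries, a value was singled out where its gap to the nearest of the others relative to the range exceeded Dixon's critical value. About 1 in 20 such groups is picked out by chance, and 21 groups were examined. Empty RV replicate 1 had 45 members with a peak at a listed start, against 59, 60 and 60 in the other Empty RV libraries, and 61 members with a peak in the gene or within 1 kb, against 76, 77 and 78. Its list was also the shortest of the arm. Tcf-1 RV replicate 4 had 61 members with a peak at a listed start, against 59 in each of the others, and a peak of 949 bp at the Rpl22 start, against 432, 452 and 456 bp. Its list was the longest of the arm. The part of list length in these values was not tested. At Rpl39l the peak of Tcf-1 RV replicate 3 was 395 bp wide, against 450, 459 and 460 bp.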

How the results depend on the processing

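Lost DP members numbered 1 with a 500 bp window, a 2 kb window, peaks anywhere in the gene or within 1 kb (chosen after seeing the data) and members with unshared windows, 0 at listed starts and with equal numbers of the widest peaks, and 5 with peaks of at least 250 bp. No share of all genes was set beside these lost counts or those below with single libraries left out. Gained DP members numbered 13 and the KO minus WT difference was 17.5 with equal numbers, where the Tcf-1 RV minus Empty RV difference was -1.5. The latter was -0.5 in day 4 libraries. Members called in DP WT only numbered 0 with the 500 bp window, at listed starts and with unshared windows. Those in NIH3T3 only numbered 0 with peaks of at least 250 bp, without paralogs and in core members. H3K27me3 lay within 1 kb of an end of 4 members, Rpl5 and Rpl38 being added. Summit genes numbered 12 with scores at or above the median, 15 at listed starts and 11 with unshared windows. The cause was not tested, except that some settings hold fewer genes or summits.

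Leaving out single libraries gave 2 to 8 lost, 0 to 1 gained, 1 to 2 in DP WT only, 0 to 5 with changed width in DP, a KO minus WT difference of -8.5 to -5.5 and a Tcf-1 RV minus Empty RV difference of 0 to 5.67. Without WT 1, Rps27l was also called in DP WT only, and without WT 2, Rpl7l1 was gained. On summed widths the log2 difference of Rps18, 0.70, was -0.040, that of Rpl10, -0.85, was 0.098 and that of Rps27a, -1.15, was -0.36. Without centring Rps18 had 0.23. Replicate numbers are shared between arms. For peak presence, same-numbered libraries correlated at -0.0815 in DP and 0.0111 to 0.194 in NIH3T3. Differently numbered ones did so at 0.0815 and -0.344 to 0.364. For width the values were -0.0098 and 0.052 to 0.532 with the same number, and 0.0098 and -0.3 to 0.153 with different numbers. In NIH3T3 widths 3 of 4 same-numbered pairs were over 0.1. Whether the numbers mark paired samples was not tested. With the replicate block the calls were unchanged at 2 lost, 0 gained and 0 changed widths in both comparisons (sign flips over pairs, exact p = 0.5 in DP and 0.625 in NIH3T3). The counts and differences under the settings not named here kept their direction and side of the threshold or, for counts, stayed within 1.5 times. The unknown read depth limits every count.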
